A study of Mus musculus with 15 samples.

Results

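The comparison described here set the lungs of mice given mesenchymal stem cells (MSCs) on day 13 of a house dust mite (HDM) challenge against the lungs of mice given HDM alone. It used 9 of the 15 libraries of the study, 4 of the 5 in the short-term MSC group (replicates 1, 2, 4 and 5) and all 5 of the HDM group. Short-term replicate 3 was left out because it was rich in transcripts of thymocytes and satellite repeats. The 5 libraries of the long-term group, which received the cells on day 6, entered the model and are set beside the results where they help to place them.

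All mice were wild-type C57BL/6 females, and all were challenged intranasally with 10 µg of HDM extract on 5 days of each of 2 weeks. The short-term mice then received adipose tissue-derived MSCs by the same route on day 13, and every lung was collected on day 15, so the short-term lungs were taken 2 days after the cells were given. The long-term mice received the cells on day 6 instead, and the HDM mice received no cells. The labels do not state whether HDM mice were given a vehicle in place of the cells, from which strain or species the MSCs came, or at what hour the lungs were taken. Saline-treated mice, named in the design, were not analysed here, and all differences are from inflamed and not from healthy lung. Nothing in the labels says how the mice of a group were housed or pooled, so the p-values measure only the spread between these libraries.

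HDM extract drives an allergic airway inflammation in which epithelial alarmins, type 2 cytokines, eosinophils, neutrophils and B cells take part, and airway mucus and smooth muscle change with it. MSCs are stromal cells that are grown in culture and release mediators that act on leukocytes, epithelium and vessels. The adult lung also carries a strong circadian programme: the activators BMAL1 and CLOCK drive the Per and Cry genes, whose proteins repress the activators, and glucocorticoid hormone acts on several of the same genes. RNA was taken from whole lung lobes, so for every cell type below fewer cells and less RNA per cell cannot be told apart.

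The 4 short-term libraries held between 26945272 and 32119067 counts, the long-term ones between 31762964 and 41762167, and the HDM ones between 29635897 and 44201637. Of 55421 genes in the table, 19657 were tested. Defining markers of lung were abundant in all 9 libraries: Sftpc, the surfactant protein of type 2 alveolar cells, lay between 6241 and 7051 CPM (counts scaled to a common library size by TMM) in the short-term libraries and between 5372 and 9080.2 CPM in the HDM libraries. The sum of 5 thymocyte markers (Rag1, Rag2, Dntt, Ptcra and Arpp21) reached 0.973 to 10.4 CPM in the short-term libraries kept, against 0.857 to 1.89 CPM in HDM, with Rag2 at 0 in all HDM libraries. Short-term replicates 2 and 4 held the higher sums, 4.07 and 10.4 CPM. On the first principal component of the 14 libraries fitted, with 26.3% of the variance, HDM replicates 1 and 2 stood apart at -47.0 and -61.6, while the other 12 lay between -14.6 and 33.1. Values without these HDM libraries are given beside several of the results. Where a value is given for every library, the libraries stand in the order of their replicate numbers.

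Between the short-term and HDM groups 1294 genes passed an adjusted p of 0.05 in edgeR's quasi-likelihood test, which is 6.58% of the 19657 tested. Of these, 634 were higher in the short-term group (3.23% of genes tested) and 660 lower (3.36%). These shares are the background against which the counts for each gene list below should be read, together with the median log2 fold change of all genes tested, 0.03. Of the 19657 genes 10737 had a log2 fold change above 0 and 8920 below 0, the background for counts on either side of 0. Most changes were small. A difference of at least 1.5-fold was seen for 548 of the called genes (394 higher, 154 lower) and one of at least 2-fold for 178 (132 higher, 46 lower), and no gene passed when the model asked for a change beyond 1.5-fold (edgeR's glmTreat, 532 genes at an unadjusted p under 0.05). The 4 and 5 libraries did not overlap in 1011 of the called genes (78.1%), against 9.46% of all genes tested. Calls and overlap rest on the same values, so the higher share follows from the choice of genes and is no separate support. The number of calls rested heavily on single libraries. Without short-term replicate 5 it was 157, without replicate 2 399 and without replicate 1 604, and without both HDM replicates 1 and 2 it was 2279, while a fit of the 9 libraries alone called 152. Unless stated otherwise, adjusted p-values below come from the fit of 14 libraries. In the fit of the 9 alone Per2, Spon2 and Nnat kept the call (edgeR adjusted p = 0.0328, 0.0328 and 0.0351). Zbtb16, Csf2 and Eln lost it there (edgeR adjusted p = 0.0623, 0.0654 and 0.0757). In all 9 fits with 1 library left out 146 of the calls were kept (62 higher, 84 lower). Higher genes made up 49.0% of calls, 64.8% with upper-quartile scaling and 30.0% after a correction for transcript length.

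**Figure D1:**
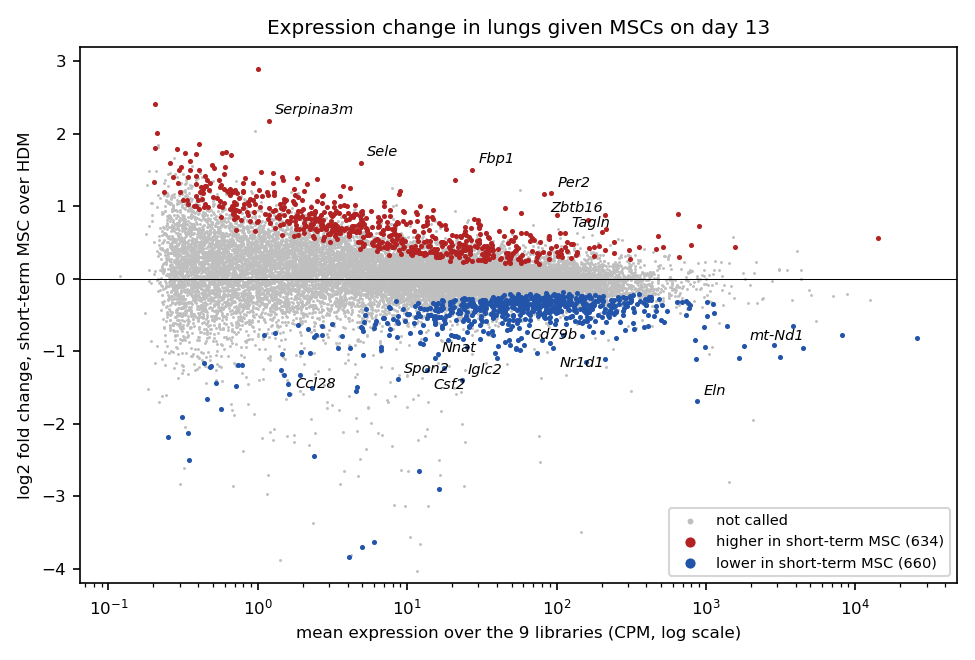
Each point is one of the genes tested, with its mean expression over the 9 libraries in CPM on a log axis and its log2 fold change, short-term MSC over HDM. Genes that passed the test are red where higher (634) and blue where lower (660) in the short-term group, and 3 genes lie outside the axis range. Lower calls sit mainly among well expressed genes (median 57.4 CPM) and higher calls reach to weakly expressed ones (median 6.37 CPM).

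Among protein-coding genes averaging 1 CPM or more, the highest fold changes were those of Serpina3m, an acute-phase serpin, with a log2 fold change of 2.19 (SE 0.48, edgeR adjusted p = 0.0178), and Sele, the E-selectin with which activated endothelium captures leukocytes, at 1.60 (SE 0.30, edgeR adjusted p = 0.0109). Sele had 3.53, 7.76, 9.4 and 10.6 CPM in the short-term libraries, against 2.5, 1.99, 2.94, 2.19 and 3.27 CPM in the HDM libraries. All 4 short-term libraries lay above all HDM libraries, though replicate 1 was close to the highest of them. Fbp1, a gluconeogenic phosphatase, had 27.8, 42.2, 66.6 and 33 CPM in the short-term libraries, against 14, 16, 17.4, 9.94 and 17.1 CPM in the HDM libraries, and Aldh1a3, which makes retinoic acid, had 4.68, 4.78, 9.13 and 6.05 CPM in the short-term libraries, against 2.3, 2.96, 2.31, 2.22 and 3.08 CPM in the HDM libraries. Both were higher in every short-term library than in any HDM library, at log2 fold changes of 1.51 and 1.25 (edgeR adjusted p = 0.00953 and 0.00539). Further down the same list stood Cys1 (1.21), a protein of primary cilia, Pdia2 (1.16), a protein disulfide isomerase, Cd209e (1.15), a C-type lectin of the DC-SIGN family, Hif3a (1.08), a hypoxia-inducible factor subunit, and the predicted gene Gm43951 (0.97), with edgeR adjusted p between 0.0141 and 0.0388. Serpina3m was weakly expressed, at 2.1 ± 1.63 CPM in short-term lungs and 0.456 ± 0.218 CPM in HDM lungs (SD, n = 4 and 5), and it overlaps Serpina3k, a near-identical relative, so its reads may have been shared between family members. Without HDM replicates 1 and 2 its log2 fold change was 2.01 (edgeR adjusted p = 0.0541). Sele, Cys1 and Pdia2 each lost the call without short-term replicate 5 (edgeR adjusted p = 0.0518, 0.0682 and 0.064) and kept it in the other fits with a library left out. Cd209e kept it in 3 of 9 such fits, with the highest edgeR adjusted p (0.1) without short-term replicate 4. Hif3a and Gm43951 kept it in 5 and 6 of 9, with the highest edgeR adjusted p without short-term replicates 5 and 1 (0.117 and 0.0819). In Cd209e, Hif3a and Gm43951 the groups overlapped. Without HDM replicates 1 and 2 Hif3a lay at 0.78 (edgeR adjusted p = 0.069).

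The lowest fold changes among such genes included those of Eln, Spon2, Csf2, mt-Nd2 and Nnat, which are given below with their lists. Ccl28, a chemokine of mucosal surfaces, had 0.513, 0.834, 0.526 and 1.19 CPM in the short-term libraries, against 2.68, 2.81, 1.26, 2.22 and 2.46 CPM in the HDM libraries. Every short-term library was below every HDM library, and the log2 fold change of -1.59 (SE 0.30, edgeR adjusted p = 0.0103) passed whichever single library was left out. Kcnj10, a potassium channel, averaged 1.05 ± 0.221 CPM in short-term lungs and 2.63 ± 0.77 CPM in HDM lungs (log2 fold change -1.32, edgeR adjusted p = 0.00557), and Cdh17, a cadherin, averaged 0.812 ± 0.371 CPM in short-term lungs and 2.22 ± 0.687 CPM in HDM lungs (log2 fold change -1.45, edgeR adjusted p = 0.0115; all SD, n = 4 and 5). Cdh17 lost the call without short-term replicate 5 (edgeR adjusted p = 0.0555). S100a11, a small calcium-binding protein, had 105, 107, 86.5 and 79.4 CPM in the short-term libraries, against 317, 328, 131, 136 and 131 CPM in the HDM libraries. HDM replicates 1 and 2 stood far above the other HDM libraries, and the fall of 1.14 on the log2 scale (edgeR adjusted p = 0.0367) became -0.51 (edgeR adjusted p = 0.0133) without them. It kept the call in 3 of 9 fits with a library left out, with the highest edgeR adjusted p (0.121) without short-term replicate 5. C130026I21Rik, a gene that overlaps others, lay at -1.55 on the log2 scale (edgeR adjusted p = 0.0241, and 0.0863 without short-term replicate 5). In a fit of the 9 libraries alone it did not pass (edgeR adjusted p = 0.0887). Without HDM replicates 1 and 2 it lay at -0.81 (edgeR adjusted p = 0.0538). Prlr, the prolactin receptor, passed narrowly at -1.25 (edgeR adjusted p = 0.0498) and kept the call in 1 of 9 fits with a library left out. It lay at -1.10 (edgeR adjusted p = 0.0805) without HDM replicates 1 and 2.

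The genes with the smallest p-values had modest fold changes and tight replicates. Besides Per2, Per3, Cry1, Spon2 and Nnat, which are described below, these were Sgcd, Dync2h1, Afap1l2, Atp2b2 and Ube2l3. Sgcd, the delta-sarcoglycan of the muscle membrane complex, had 11.3, 13.1, 10.9 and 13.6 CPM in the short-term libraries, against 7.58, 7.35, 6.75, 6.23 and 7.22 CPM in the HDM libraries. Short-term and HDM libraries did not overlap (against 4.85% of all genes not overlapping and higher, and 4.61% not overlapping and lower), at a log2 fold change of 0.80 (SE 0.10, edgeR adjusted p = 0.00243). Ube2l3, a ubiquitin-conjugating enzyme, was lower by a similarly even margin, with 67.5, 69.9, 72.3 and 63.4 CPM in the short-term libraries, against 99.9, 95.1, 87.8, 93.6 and 98.4 CPM in the HDM libraries. Atp2b2, a plasma membrane calcium pump, was higher (0.77) and Afap1l2, an actin-associated adaptor, lower (-0.57), each at an edgeR adjusted p of 0.00362. All 5 passed whichever single library was left out.

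Clock genes changed in both directions. Of 18 clock and output genes, all tested, 7 were higher (among them Ciart, Cry1, Cry2, Per2, Per3 and Tef) and 3 lower (Bhlhe41, Clock and Nr1d1), against 3.23% and 3.36% of all genes. The list's median log2 fold change was 0.30 and its members ran between -0.96 and 1.18. Per2, a repressor of the activator pair, had 124, 125, 117 and 166 CPM in the short-term libraries, against 44.1, 52.7, 79.4, 60 and 57.3 CPM in the HDM libraries. Every short-term library exceeded every HDM library, with short-term replicate 5 highest, and the fold change was 2.27 (1.18 on the log2 scale, SE 0.14, edgeR adjusted p = 0.00243). Per3, its relative, lay between 112 and 151 CPM in the short-term libraries and between 55.8 and 90.4 CPM in the HDM libraries, again without overlap (0.89, edgeR adjusted p = 0.00362). Cry1, the partner of the PER proteins in repression, averaged 21.5 ± 1.55 CPM in short-term lungs and 12.9 ± 1.44 CPM in HDM lungs (SD, n = 4 and 5; 0.74, edgeR adjusted p = 0.00362).

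Nr1d1, which encodes REV-ERB alpha, the repressor that shuts off Bmal1 transcription, moved the other way with 64.2, 59, 68.2 and 56.9 CPM in the short-term libraries, against 115, 125, 149.9, 116 and 97.9 CPM in the HDM libraries. The groups were widely separated, at a log2 fold change of -0.96 (SE 0.14, edgeR adjusted p = 0.00437). Tef, an output factor of the PAR bZIP family, and Ciart, a repressor of BMAL1 and CLOCK, also rose, with log2 fold changes of 0.68 and 0.92 (edgeR adjusted p = 0.0212 and 0.0247). Clock itself was lower at 101 CPM in short-term against 129 CPM in HDM lungs (-0.35, edgeR adjusted p = 0.0254), and Bhlhe41 at 23.4 CPM in short-term against 36.3 CPM in HDM lungs (-0.64, edgeR adjusted p = 0.0448). Arntl, the gene of BMAL1, did not pass at 11.2 CPM in short-term against 15.6 CPM in HDM lungs (-0.48, edgeR adjusted p = 0.0723), nor did Dbp at 125 CPM in short-term against 108 CPM in HDM lungs (0.21, edgeR adjusted p = 0.543) or Per1 at 130.3 CPM in short-term against 81.2 CPM in HDM lungs (0.68, edgeR adjusted p = 0.0601). Per2, Per3, Cry1 and Nr1d1 passed whichever single library was left out, and Cry2 in 1 of 9 such fits. Tef, Ciart and Clock lost the call without short-term replicate 5 (edgeR adjusted p = 0.0788, 0.0745 and 0.0712) and Bhlhe41 without replicate 2 (0.122). Without HDM replicates 1 and 2, Cry2 lay at 0.26 (edgeR adjusted p = 0.124), Bhlhe41 at -0.36 (edgeR adjusted p = 0.0925), Clock at -0.22 (edgeR adjusted p = 0.0185), Tef at 0.46 (edgeR adjusted p = 0.046) and Ciart at 0.57 (edgeR adjusted p = 0.0269). Nr1d1 overlaps Thra on the opposite strand and Per3 overlaps Camta1 on the same strand, and the sources used here do not say how such reads were counted. The hour of lung collection is not given either, and its part in these values was not tested.

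The promoters of clock genes that changed are shown because the letters by which the clock proteins are known to bind can be read in them. Each window runs over 250 bases before and 50 after the start of the RefSeq gene on GRCm38.p6, 5′ to 3′ on the gene's strand, with matches to the E-box (CACGTG), the E-prime box (CACGTT) and the D-box (TTATGTAA) in capitals, searched on both strands. Within these windows no match overlaps another.
Ciart, chr3:95882179-95882478, minus strand: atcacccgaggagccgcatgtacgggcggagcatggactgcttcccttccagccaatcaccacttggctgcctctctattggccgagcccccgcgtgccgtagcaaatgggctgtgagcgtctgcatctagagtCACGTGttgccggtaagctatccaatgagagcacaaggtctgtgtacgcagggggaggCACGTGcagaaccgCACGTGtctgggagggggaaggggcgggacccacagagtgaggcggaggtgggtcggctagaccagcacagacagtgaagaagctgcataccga
Cry1, chr10:85185005-85185304, minus strand: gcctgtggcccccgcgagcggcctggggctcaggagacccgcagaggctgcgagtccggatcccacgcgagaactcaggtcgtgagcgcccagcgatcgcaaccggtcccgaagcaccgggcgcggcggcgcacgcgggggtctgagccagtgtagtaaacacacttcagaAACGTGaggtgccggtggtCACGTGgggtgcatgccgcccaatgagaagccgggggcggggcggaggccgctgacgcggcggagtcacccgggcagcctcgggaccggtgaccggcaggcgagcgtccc
Per3, chr4:151044616-151044915, minus strand: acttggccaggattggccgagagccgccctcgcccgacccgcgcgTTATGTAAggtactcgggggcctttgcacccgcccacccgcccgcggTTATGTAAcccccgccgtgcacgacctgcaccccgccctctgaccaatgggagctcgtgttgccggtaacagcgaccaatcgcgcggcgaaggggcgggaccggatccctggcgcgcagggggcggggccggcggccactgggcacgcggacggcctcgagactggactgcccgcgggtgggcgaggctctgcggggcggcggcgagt
Nr1d1, chr11:98775328-98775627, minus strand: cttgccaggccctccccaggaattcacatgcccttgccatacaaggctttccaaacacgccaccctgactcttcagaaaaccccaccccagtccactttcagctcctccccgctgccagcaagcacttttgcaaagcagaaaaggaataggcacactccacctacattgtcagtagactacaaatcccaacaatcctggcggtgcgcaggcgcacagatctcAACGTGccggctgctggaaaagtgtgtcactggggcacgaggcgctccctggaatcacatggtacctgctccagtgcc
Ciart held 3 E-boxes, Cry1 an E-box and an E-prime box, Per3 a pair of D-boxes and Nr1d1 an E-prime box. Of the 18 clock genes 15 had a window in RefSeq. The E-box occurred in 5 of these (Bhlhe41, Ciart, Cry1, Per1 and Tef), against 8.09% of 27025 genes, and the E-prime box in 3 (Cry1, Cry2 and Nr1d1), against 5.44%. The D-box occurred in Per3 alone, against 1.11% of genes. A further clock motif searched in these windows, the ROR element (NTAGGTCA, N being any base), occurred in 2 (Arntl and Nfil3), against 2.95% of genes. Neither of these genes was called. Genes that rose (Ciart, Cry1, Tef) and genes that fell (Bhlhe41, Nr1d1) both carried E-box or E-prime letters. Per2 and Bhlhe40 were not among the windows.

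**Figure D2:**
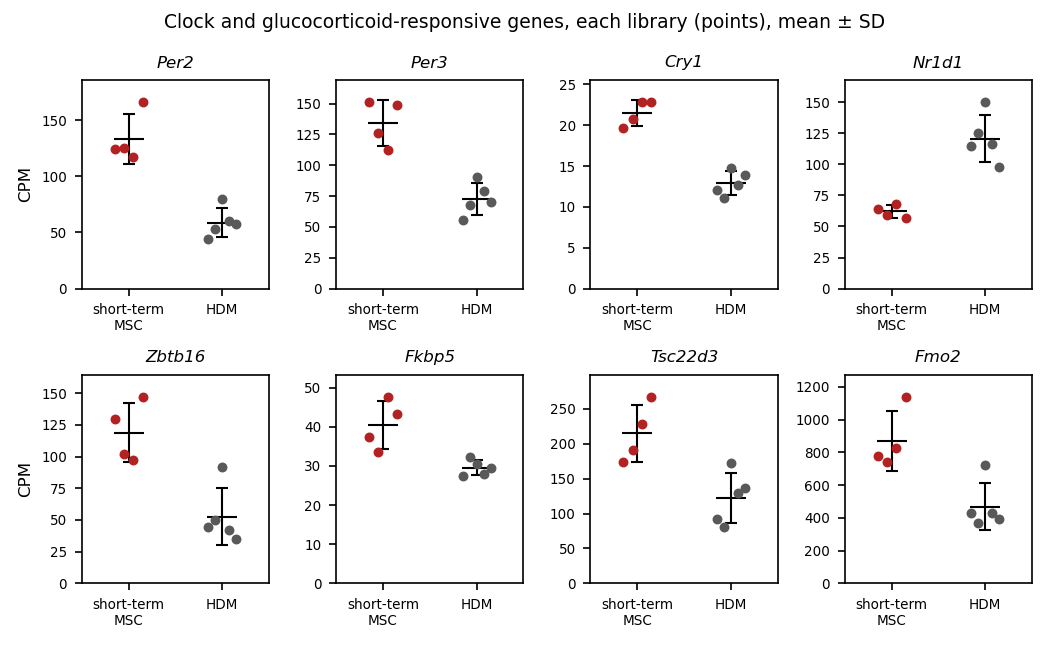
Expression in CPM of 4 clock genes (upper panels) and 4 further genes (lower panels) in each short-term MSC library (red, left) and each HDM library (grey, right), with the mean and SD as black bars; every axis starts at 0. Per2, Per3, Cry1 and Nr1d1 show no overlap between groups, and in Zbtb16, Fmo2 and Tsc22d3 HDM replicate 3 is the highest HDM library.

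Glucocorticoid receptor targets showed a mixed pattern. Of 15 targets, 3 rose (Fkbp5, Tsc22d3 and Zbtb16), 1 fell (Sgk1) and the median log2 fold change was 0.30. Zbtb16, a transcription factor strongly induced by glucocorticoid, had 129.9, 102, 97.1 and 147 CPM in the short-term libraries, against 44.2, 50.3, 92.1, 41.9 and 34.8 CPM in the HDM libraries, and its log2 fold change was 1.18 (SE 0.24, edgeR adjusted p = 0.0167). The short-term libraries were all above the HDM libraries, with HDM replicate 3 well above its own group. Tsc22d3, the glucocorticoid-induced leucine zipper, had 174, 190.5, 228 and 267 CPM in the short-term libraries, against 92.4, 81.3, 172, 129.8 and 136 CPM in the HDM libraries (0.81, edgeR adjusted p = 0.0249). Its lowest short-term value lay just above its highest HDM value, that of replicate 3. Fkbp5, a chaperone that dampens receptor signalling, averaged 40.5 ± 6.25 CPM in short-term lungs and 29.5 ± 1.92 CPM in HDM lungs (SD, n = 4 and 5; 0.45, edgeR adjusted p = 0.0189). Sgk1, a kinase induced by the same receptor, was lower at 112 CPM in short-term against 154 CPM in HDM lungs (-0.46, edgeR adjusted p = 0.0296). Targets that did not pass included Per1, Dusp1 (137 CPM in short-term against 107 CPM in HDM lungs), Klf9 (179 CPM in short-term against 155 CPM in HDM lungs), Cebpd (88.9 CPM in short-term against 53.3 CPM in HDM lungs) and Mt1 (34.8 CPM in short-term against 43.6 CPM in HDM lungs). None of the 4 calls held in all fits with a library left out: the highest edgeR adjusted p was 0.0665 without short-term replicate 5 for Zbtb16, 0.0753 without short-term replicate 5 for Fkbp5, 0.0973 without short-term replicate 5 for Tsc22d3 and 0.0951 without short-term replicate 2 for Sgk1. Without HDM replicates 1 and 2 the list median was 0.09, Zbtb16 lay at 1.06 (edgeR adjusted p = 0.0628) and Tsc22d3 at 0.54 (edgeR adjusted p = 0.0601). The consensus glucocorticoid response element was found in the promoter windows of Mt1 and Sgk1 among 13 targets, against 0.537% of genes.

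Most sterol genes lay a little above 0. Of 16 genes of cholesterol and fatty acid synthesis, 5 were higher (among them Fdft1, Insig1 and Lss), 1 was lower (Scd1) and 13 lay above 0, with a median of 0.22. Lss, which closes the sterol ring, had 50.4, 51.8, 48.9 and 55.7 CPM in the short-term libraries, against 28.9, 26.4, 38.6, 31.2 and 38.5 CPM in the HDM libraries. The lowest short-term value was well above the highest HDM value (0.66, SE 0.12, edgeR adjusted p = 0.00944), and the call held whichever single library was left out. Fdft1, squalene synthase, averaged 47.1 ± 1.73 CPM in short-term lungs and 35.3 ± 2.74 CPM in HDM lungs (SD, n = 4 and 5; 0.41, edgeR adjusted p = 0.0176). Scd1, a fatty acid desaturase, had 3033, 2732, 2348 and 3528 CPM in the short-term libraries, against 4889, 4613, 5167, 4919.6 and 3331 CPM in the HDM libraries; short-term replicate 5 overlapped HDM replicate 5 (-0.66, edgeR adjusted p = 0.0222). Fdft1 lost the call without short-term replicate 5 (edgeR adjusted p = 0.064) and Scd1 without replicate 2 (0.0695). Insig1, which retains the sterol sensor in the endoplasmic reticulum, lost it without HDM replicates 1 and 2 and kept it in 1 of the 9 fits with a single library left out. In the long-term group Lss lay between 35 and 50.7 CPM, and its long-term difference from HDM was 0.38, edgeR adjusted p = 0.0861.

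Most B-cell genes fell. Of 14 B-cell genes 11 fell, none rose, all 14 lay below 0 and the median log2 fold change was -0.81, against 3.36% of all genes called lower and a median of 0.03. Cd79b, which passes on the signal of the B-cell antigen receptor, had 50.7, 44, 41.8 and 25.9 CPM in the short-term libraries, against 76.9, 83.1, 73.8, 76.7 and 73.2 CPM in the HDM libraries. The groups were separated by a wide gap, and short-term replicate 5 was the lowest library (-0.92, SE 0.14, edgeR adjusted p = 0.00437). Ms4a1, which encodes CD20, had 39.5, 33.7, 36.2 and 20.6 CPM in the short-term libraries, against 68.7, 79.5, 50.5, 52.9 and 55 CPM in the HDM libraries (-0.92, edgeR adjusted p = 0.00972). Fcrla, a B-cell relative of the Fc receptors, averaged 10.2 ± 2.7 CPM in short-term lungs and 21 ± 3.6 CPM in HDM lungs, and Cxcr5, the receptor that guides B cells into follicles, averaged 14.1 ± 3.73 CPM in short-term lungs and 24.2 ± 0.863 CPM in HDM lungs (SD, n = 4 and 5; log2 fold changes -1.04 and -0.78, edgeR adjusted p = 0.00533 and 0.0103). Tnfrsf13c, the receptor for the B-cell survival factor BAFF, fell as well, with 12.3, 11, 9.93 and 7.49 CPM in the short-term libraries, against 31.7, 35.9, 16.6, 16.5 and 18.1 CPM in the HDM libraries, and without HDM replicates 1 and 2 its log2 fold change was -0.77 (edgeR adjusted p = 0.00585), against -1.23 with them. Blk, Bank1 and Fcer2a did not pass, at 11.3 CPM in short-term against 16.2 CPM in HDM lungs, 42.1 CPM in short-term against 67.4 CPM in HDM lungs and 31.8 CPM in short-term against 48.4 CPM in HDM lungs. Cd79b, Ms4a1, Fcrla, Fcmr and Cxcr5 passed whichever single library was left out, and 9 of the 11 calls held without HDM replicates 1 and 2; Pax5 and Cr2, which did not, lay at -0.69 (edgeR adjusted p = 0.0573) and -0.53 (edgeR adjusted p = 0.101).

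Antibody genes were all lower in mean but seldom passed the test, and the libraries varied widely. All 19 lay below 0 with a median of -1.02, and 2 fell, the light-chain constant gene Iglc2 and Ighd, the heavy chain of naive B cells. Iglc2 had 16.6, 12.1, 10.8 and 9.22 CPM in the short-term libraries, against 34.6, 32.3, 22.8, 34.6 and 35.9 CPM in the HDM libraries, and every short-term library was below every HDM library (-1.39, SE 0.21, edgeR adjusted p = 0.0051). Its near-identical neighbour Iglc3 did not pass, at 20 CPM in short-term against 45 CPM in HDM lungs, and reads of this pair may have been shared. Ighd averaged 46.7 ± 11.7 CPM in short-term lungs and 94.9 ± 26.2 CPM in HDM lungs (SD, n = 4 and 5; -1.02, edgeR adjusted p = 0.0113). Ighg1, a heavy-chain gene of switched antibody, and Igkc, the kappa light-chain constant gene, had far larger fold changes with far larger spread. Ighg1 averaged 333 ± 543 CPM in short-term lungs and 2315 ± 1696 CPM in HDM lungs (log2 fold change -2.80, SE 1.28, edgeR adjusted p = 0.198). Igkc averaged 798 ± 612 CPM in short-term lungs and 3075 ± 1945 CPM in HDM lungs (-1.95, SE 0.60, edgeR adjusted p = 0.0721, all SD, n = 4 and 5). Together, immunoglobulin transcripts took 0.618%, 0.212%, 0.126% and 0.266% of the counts in the short-term libraries and 0.854%, 1.54%, 0.322%, 0.862% and 0.824% in the HDM libraries. The shares averaged 0.306 ± 0.216% in the short-term and 0.879 ± 0.432% in the HDM libraries (SD, n = 4 and 5; exact two-sided permutation test p = 0.0317, adjusted over 4 shares 0.0423), and short-term replicate 1 overlapped HDM replicate 3. The smallest p that 4 against 5 libraries allow is 0.0159.

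Genes of the follicle, of antigen presentation and of T cells gave smaller changes. Of 8 follicle genes 2 fell, Cxcr5 and Clu, an extracellular chaperone made by follicular dendritic cells among others (180.2 CPM in short-term against 259 CPM in HDM lungs, -0.53, edgeR adjusted p = 0.0249, and 0.0978 without short-term replicate 5). The follicle marker Cxcl13 lay between 2.74 and 20.4 CPM in the short-term libraries and between 5.07 and 15.2 CPM in HDM. Cr2, which is also on the B-cell list, lay between 16.6 and 33.9 CPM in the short-term libraries and between 32.6 and 73.6 CPM in HDM. The part of follicles in the B-cell result was not tested. Of 14 genes of MHC class II presentation 4 fell (H2-Ob, H2-Eb2, H2-DMb2 and H2-Ab1), 13 lay below 0 and the median was -0.33. H2-Ob, which modulates peptide loading in B cells, averaged 37.6 ± 8.44 CPM in short-term lungs and 55.8 ± 4.62 CPM in HDM lungs, and H2-Ab1, a chain of the classical class II molecule, averaged 928 ± 119.8 CPM in short-term lungs and 1290.1 ± 198 CPM in HDM lungs (SD, n = 4 and 5; log2 fold changes -0.57 and -0.47, edgeR adjusted p = 0.0174 and 0.0347). None of the 4 held in all fits with a library left out, with the highest edgeR adjusted p between 0.0678 and 0.127, each without short-term replicate 5, and H2-Ab1 and H2-DMb2 also lost the call without HDM replicates 1 and 2. Ciita, the master regulator of class II genes, and Cd74, the invariant chain, did not pass, at 144 CPM in short-term against 152 CPM in HDM lungs and 1933 CPM in short-term against 2425 CPM in HDM lungs. Of 15 T-cell genes only Trac, the constant gene of the T-cell receptor alpha chain, passed, at 12.8 ± 2.34 CPM in short-term lungs and 20.6 ± 3.51 CPM in HDM lungs (SD, n = 4 and 5; -0.68, edgeR adjusted p = 0.0215, and 0.0818 without short-term replicate 5). The median of that list was -0.21 and became 1.24 with short-term replicate 3 in the fit, in which Trac itself lay at 0.24 on the log2 scale. No gene of 10 of NK and cytotoxic cells passed in edgeR (1 at an unadjusted p under 0.05, 1 called by DESeq2).

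**Figure D3:**
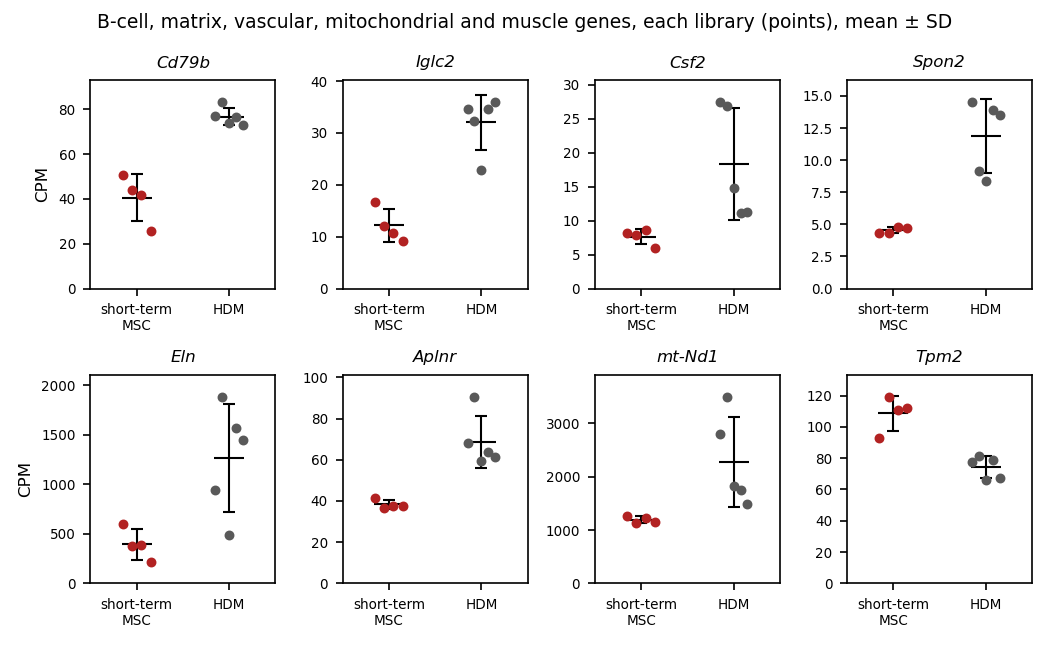
Expression in CPM of 8 genes in each short-term MSC library (red, left) and each HDM library (grey, right), with the mean and SD as black bars; every axis starts at 0. Short-term values of Cd79b, Iglc2, Spon2 and Aplnr lie below all HDM values, Tpm2 lies above them, Eln overlaps, and Csf2 and mt-Nd1 are highest in HDM replicates 1 and 2.

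The cytokines and effectors usually followed in allergic airway disease gave few calls. With 6.58% of all genes tested called, lists this short would hold few calls at that share, so the counts do not set them apart. Of 15 tested type 2 cytokines, alarmins and their receptors, 1 passed, Il13ra1, a chain of the IL-13 receptor, which was lower at 71.2 ± 3.45 CPM in short-term lungs and 87.4 ± 5.55 CPM in HDM lungs (SD, n = 4 and 5; -0.30, edgeR adjusted p = 0.0245, and 0.0831 without short-term replicate 5). Il13 averaged 1.05 ± 0.665 CPM in short-term lungs and 0.87 ± 0.564 CPM in HDM lungs (edgeR adjusted p = 0.765), Il5 0.527 CPM in short-term against 0.414 CPM in HDM lungs and Il33, an epithelial alarmin, 247 CPM in short-term against 289 CPM in HDM lungs. Il4, Il5 and Il13 lay between 0.21 and 3.24 CPM in the 9 libraries, where counting error is large and a modest difference was not detectable. None of 10 goblet cell genes passed: Muc5ac, a mucin of inflamed airways, averaged 122 ± 24.5 CPM in short-term lungs and 102 ± 43.1 CPM in HDM lungs (0.26, SE 0.48, edgeR adjusted p = 0.777) and Clca1 2364 ± 201 CPM in short-term lungs and 2011 ± 742 CPM in HDM lungs (SD, n = 4 and 5). Of 9 eosinophil genes none passed, the nearest being Ccr3, the eotaxin receptor, at 25.3 ± 5.81 CPM in short-term lungs and 38.1 ± 9.79 CPM in HDM lungs (-0.59, edgeR adjusted p = 0.0668). Alveolar macrophage genes (13 tested) and chitinase-like genes (9 tested) had no calls either, with medians of 0.09 and 0.00 (edgeR, with 2 and 1 genes at an unadjusted p under 0.05 and none and 1 called by DESeq2). With DESeq2 1 of the type 2 list, 0 of the goblet list and 1 of the eosinophil list were called, and at an unadjusted p under 0.05 edgeR gave 3, 0 and 3.

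Csf2, which encodes GM-CSF, the growth factor of alveolar macrophages and granulocytes, was the 1 member of 12 in the IL-17 and neutrophil chemoattractant list to pass. It had 8.22, 7.82, 8.57 and 6.02 CPM in the short-term libraries, against 27.4, 26.9, 14.8, 11.1 and 11.3 CPM in the HDM libraries. Every short-term library lay below every HDM library, yet HDM replicates 1 and 2 held levels well above those of the other 3, and without them the log2 fold change was -0.71 (edgeR adjusted p = 0.00766) against -1.25 (edgeR adjusted p = 0.0139) with all. Without short-term replicate 5 the call was lost (edgeR adjusted p = 0.0619). Il17a, Cxcl1 and Cxcl5 did not pass, at 1.38 CPM in short-term against 1.5 CPM in HDM lungs, 5.67 CPM in short-term against 4.2 CPM in HDM lungs and 4.1 CPM in short-term against 5.49 CPM in HDM lungs. Of 13 neutrophil genes 4 fell: Mmp8 and Mmp9, proteases of neutrophil granules, Retnlg, a resistin-like protein, and Lcn2, an iron-sequestering lipocalin also made by epithelium. Mmp9 averaged 13.8 ± 2.08 CPM in short-term lungs and 20.5 ± 2.74 CPM in HDM lungs and Lcn2 1053 ± 299 CPM in short-term lungs and 1659.6 ± 279 CPM in HDM lungs (SD, n = 4 and 5; log2 fold changes -0.57 and -0.66, edgeR adjusted p = 0.0197 and 0.0362). The neutrophil genes had a median log2 fold change of -0.10, and all 4 calls were lost without short-term replicate 5 (edgeR adjusted p between 0.076 and 0.104). Without HDM replicates 1 and 2 Lcn2 and Retnlg lost the call as well. Of 15 monocyte and interstitial macrophage genes 3 fell, Ly6c2, Ms4a7 and Apoe, and 13 lay below 0. All 3 lost the call without short-term replicate 5. Ly6c2, a marker of inflammatory monocytes, averaged 16.4 ± 4.02 CPM in short-term lungs and 29.1 ± 2.89 CPM in HDM lungs (-0.82, edgeR adjusted p = 0.0113), and C3ar1, the receptor for the anaphylatoxin C3a, averaged 35.2 ± 7.6 CPM in short-term lungs and 68.4 ± 17.1 CPM in HDM lungs (-0.95, edgeR adjusted p = 0.016; SD, n = 4 and 5). HDM replicate 3 had the lowest C3ar1 of its group and overlapped the short-term libraries, and without HDM replicates 1 and 2 the value was -0.81 (edgeR adjusted p = 0.052). Among 13 complement genes tested 1 fell and none rose, while 8 lay above 0 and the list median was 0.13.

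Interferon-stimulated genes differed between the short-term libraries, and acute-phase genes went both ways. As the median over the list of log2 (CPM + 0.5) less the mean of the HDM libraries, 15 interferon-stimulated genes lay at 0.46 and 1.03 in short-term replicates 2 and 4 and at -0.31 and -0.30 in replicates 1 and 5, against -0.18 to 0.10 in HDM. Replicates 1 and 5 were thus below and replicates 2 and 4 above every HDM library. Of the 15 genes 14 had a log2 fold change above 0, the median of 0.48 became -0.01 without short-term replicate 4, and 1 passed, Ifit3, an antiviral effector, with 54.2, 86.3, 119 and 52.4 CPM in the short-term libraries, against 35.8, 40.4, 58.1, 40.6 and 33.3 CPM in the HDM libraries. Short-term replicates 2 and 4 were high and replicates 1 and 5 overlapped HDM, and the call (0.91, edgeR adjusted p = 0.0433) held in 2 of 9 fits with a library left out; without HDM replicates 1 and 2 it was lost, at 0.81 (edgeR adjusted p = 0.147). Replicates 2 and 4 also held the most thymocyte markers, whose part in this result was not tested. Of 9 acute-phase genes Serpina3m and Saa1 rose and Lbp and Lcn2 fell. Saa1, serum amyloid A, was scarce at 1.08 ± 0.888 CPM in short-term lungs and 0.328 ± 0.0998 CPM in HDM lungs (1.72, edgeR adjusted p = 0.0351, and 0.115 without short-term replicate 4), with short-term replicate 4 highest. Lbp, the protein that presents endotoxin, had 61.5, 61, 65.9 and 60.9 CPM in the short-term libraries, against 73.3, 73.3, 88.6, 91.7 and 84.4 CPM in the HDM libraries, without overlap (-0.40, SE 0.07, edgeR adjusted p = 0.00962).

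A few matrix genes fell. Spon2, which encodes spondin 2, a secreted matrix protein that also binds integrins of leukocytes, had 4.32, 4.33, 4.76 and 4.75 CPM in the short-term libraries, against 14.5, 9.17, 8.35, 13.9 and 13.5 CPM in the HDM libraries. The short-term values were almost identical and all lay below the HDM range, a fold of 0.382 (-1.39, SE 0.17, edgeR adjusted p = 0.00261); the call held whichever single library was left out. Eln, which encodes elastin, had 596, 375, 384 and 213 CPM in the short-term libraries, against 942, 1879, 489, 1566 and 1446 CPM in the HDM libraries. HDM replicate 3 lay within the short-term range, and the log2 fold change of -1.69 (SE 0.41, edgeR adjusted p = 0.031) kept its call in 4 of 9 fits with a library left out and was -1.60 (edgeR adjusted p = 0.0558) without HDM replicates 1 and 2. Of 18 genes of elastic fibres and collagens only Eln and Loxl2, a collagen and elastin crosslinking oxidase, passed, both lower, and the list median was -0.03. Col1a1, Col3a1 and Fbn1 averaged 561 CPM in short-term against 612 CPM in HDM lungs, 2175 CPM in short-term against 2064 CPM in HDM lungs and 408 CPM in short-term against 503 CPM in HDM lungs and did not pass. Of 14 matricellular and fibrotic genes Spon2, Tgfb2 and Tgfb3 fell, with a list median of -0.28. Tgfb3 averaged 58.3 ± 1.89 CPM in short-term lungs and 79 ± 8.84 CPM in HDM lungs and Tgfb2 35.3 ± 0.949 CPM in short-term lungs and 46.9 ± 6.42 CPM in HDM lungs (SD, n = 4 and 5; log2 fold changes -0.44 and -0.41, edgeR adjusted p = 0.0195 and 0.0182), and in both the groups did not overlap, though both calls were lost without short-term replicate 5 (0.0749 and 0.0719). Loxl2 lay at -0.57 (edgeR adjusted p = 0.0438, and 0.138 without short-term replicate 5), and its call was also lost without HDM replicates 1 and 2, at -0.43 (edgeR adjusted p = 0.0759). Of 11 metalloproteinases and inhibitors the neutrophil enzymes Mmp8 and Mmp9 passed. Mmp13, a collagenase, and Mmp12, the macrophage elastase, had larger mean differences that did not pass, at 7.87 ± 5.67 CPM in short-term lungs and 37.5 ± 21.6 CPM in HDM lungs (-2.25, edgeR adjusted p = 0.0839) and 659 ± 343 CPM in short-term lungs and 1349 ± 678 CPM in HDM lungs (-1.03, edgeR adjusted p = 0.204).

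Nnat, the imprinted gene neuronatin, was the 1 of 10 imprinted growth genes to pass. It had 10.4, 9.75, 9.78 and 7.67 CPM in the short-term libraries, against 18.4, 20.9, 15.6, 26.7 and 18.7 CPM in the HDM libraries, with all short-term values under all HDM values (-1.09, SE 0.15, edgeR adjusted p = 0.00362), and the call held whichever single library was left out. Nnat lies inside Blcap on the opposite strand.

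Of 13 contractile genes of smooth muscle 8 rose (Acta2, Actg2, Cnn1, Des, Myh11, Myl9, Tagln and Tpm2), none fell, and the median log2 fold change was 0.48. Tagln, the smooth muscle protein SM22, had 118, 160.1, 139.5 and 150.1 CPM in the short-term libraries, against 84.8, 72.6, 100.4, 108 and 92.4 CPM in the HDM libraries. Tpm2, a tropomyosin, had 92.7, 119, 111 and 112 CPM in the short-term libraries, against 77.3, 81.5, 66.2, 78.8 and 67.2 CPM in the HDM libraries. In both, the lowest short-term value was above the highest HDM value (0.63 and 0.55, edgeR adjusted p = 0.00575 and 0.00521). Myh11, the smooth muscle myosin heavy chain, averaged 589 ± 71.6 CPM in short-term lungs and 392 ± 72.3 CPM in HDM lungs, and Acta2, smooth muscle actin, averaged 351 ± 49.9 CPM in short-term lungs and 267 ± 30.8 CPM in HDM lungs (SD, n = 4 and 5; log2 fold changes 0.59 and 0.40, edgeR adjusted p = 0.0148 and 0.0377). Mylk, Tpm1 and Smtn did not pass, at 583 CPM in short-term against 582 CPM in HDM lungs, 384 CPM in short-term against 362 CPM in HDM lungs and 87.9 CPM in short-term against 79.8 CPM in HDM lungs. All 8 calls held without HDM replicates 1 and 2, and Tagln, Myl9 and Tpm2 held whichever single library was left out. The other 5 lost the call without short-term replicate 5 or 2. None of 15 sarcomere genes of cardiomyocytes passed in edgeR (0 at an unadjusted p under 0.05, 0 called by DESeq2), and their marker sum (Myh6, Myl7, Tnni3 and Nppa) spread over 48.1 to 423 CPM in the short-term libraries and 34.8 to 345 CPM in HDM. The serum response element of muscle genes, the CArG box, was found in the promoter window of Myl9 among 10 of the genes, against 1.81% of all genes.

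Motile cilia genes lay higher by a small amount. All 12 tested lay at or above 0 with a median of 0.40, and 4 passed: the axonemal dynein heavy chains Dnah5, Dnah9 and Dnah11, and Ccdc39, which sets the spacing of dynein arms. Dnah9 had 85.9, 75, 82.4 and 96.9 CPM in the short-term libraries, against 57.3, 52.4, 64, 63.8 and 54.4 CPM in the HDM libraries, without overlap (0.54, SE 0.12, edgeR adjusted p = 0.0196). Ccdc39 averaged 33.4 ± 4 CPM in short-term lungs and 24.4 ± 3.43 CPM in HDM lungs (SD, n = 4 and 5; 0.45, edgeR adjusted p = 0.0242). Dync2h1, the dynein motor of transport inside cilia, had 78.9, 76.1, 78.4 and 94.2 CPM in the short-term libraries, against 55.8, 56.3, 54, 47.2 and 54.5 CPM in the HDM libraries (0.61, SE 0.08, edgeR adjusted p = 0.00362). Foxj1, the master regulator of motile cilia, did not pass at 91.4 CPM in short-term against 70.7 CPM in HDM lungs (0.37, edgeR adjusted p = 0.236), nor did Tppp3 at 149 CPM in short-term against 120.2 CPM in HDM lungs. Each of the 4 list calls was lost without short-term replicate 5 (edgeR adjusted p between 0.0818 and 0.127). Dnah9 lay at 0.47 (edgeR adjusted p = 0.0558) and Dnah11 at 0.36 (edgeR adjusted p = 0.0509) without HDM replicates 1 and 2. Of 10 club cell genes Aldh1a7, an aldehyde dehydrogenase, rose to 84.5 CPM in short-term against 65.6 CPM in HDM lungs (0.36, edgeR adjusted p = 0.0462), a call kept in 2 of 9 fits and lost without HDM replicates 1 and 2, at 0.33 (edgeR adjusted p = 0.105).

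Alveolar and vascular genes gave a few falls. Of 14 genes of type 2 alveolar cells 4 fell and 12 lay below 0, with a median of -0.27. Muc1, a membrane mucin of the alveolar surface, had 303, 272, 292 and 291 CPM in the short-term libraries, against 451, 581, 405, 441 and 409 CPM in the HDM libraries (-0.66, SE 0.11, edgeR adjusted p = 0.00557). Lpcat1, which makes surfactant lipid, had 351, 311, 297 and 319 CPM in the short-term libraries, against 391, 415, 440, 484 and 432 CPM in the HDM libraries (-0.44, edgeR adjusted p = 0.00933). Both were lower in every short-term library and held whichever single library was left out. Cldn18, a tight junction protein, and Cd36, a fatty acid transporter, also fell (596 CPM in short-term against 842 CPM in HDM lungs and 655 CPM in short-term against 862 CPM in HDM lungs). The surfactant genes Sftpc and Sftpb did not pass, at 6514 CPM in short-term against 7651 CPM in HDM lungs and 1395 CPM in short-term against 1673 CPM in HDM lungs, and none of 12 genes of type 1 alveolar cells passed in edgeR (3 at an unadjusted p under 0.05, 1 called by DESeq2). Cldn18 and Cd36 lost the call without short-term replicate 5. Of 14 endothelial genes Aplnr, the apelin receptor, Emcn, a sialomucin of capillaries and veins, and Cdh5, the junction protein VE-cadherin, fell, while the list median was 0.01. Aplnr had 41.4, 36.8, 37.4 and 37.6 CPM in the short-term libraries, against 67.9, 90.4, 59.3, 63.8 and 61.3 CPM in the HDM libraries, without overlap (-0.84, SE 0.14, edgeR adjusted p = 0.00557), and Cdh5 averaged 608 ± 22.8 CPM in short-term lungs and 757 ± 43.8 CPM in HDM lungs (SD, n = 4 and 5; -0.32, edgeR adjusted p = 0.0392). Aplnr passed whichever single library was left out, and Emcn and Cdh5 lost the call without short-term replicate 5 (0.0559 and 0.104). Of 10 adhesion genes Sele rose and 2 leukocyte molecules fell. One of these was Selplg, the ligand of P-selectin (log2 fold change -0.37, edgeR adjusted p = 0.0349), whose call was lost without short-term replicate 5 (edgeR adjusted p = 0.129).

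Of 15 genes of xenobiotic metabolism Fmo2, the flavin monooxygenase of lung, and Gsta3, a glutathione transferase, rose. Fmo2 had 777, 739, 825 and 1138 CPM in the short-term libraries, against 432, 369, 723, 428 and 394 CPM in the HDM libraries and Gsta3 had 54, 52.5, 65.2 and 77.7 CPM in the short-term libraries, against 28.9, 34.8, 48.8, 25.3 and 20 CPM in the HDM libraries. Neither overlapped, with HDM replicate 3 closest to the short-term libraries in both (0.89 and 0.98, edgeR adjusted p = 0.0196 and 0.0178). Both lost the call without short-term replicate 5 (edgeR adjusted p = 0.0818 and 0.0741) and without HDM replicates 1 and 2 (0.0799 and 0.0582). Genes that mark or mediate the action of MSCs gave 3 falls among 18: Thy1 (30.2 CPM in short-term against 43.9 CPM in HDM lungs), Cxcl12 (155 CPM in short-term against 198 CPM in HDM lungs) and Cd44 (335 CPM in short-term against 421 CPM in HDM lungs), with edgeR adjusted p between 0.0329 and 0.0433. None of these held in all fits with a library left out, Thy1 and Cd44 lost the call without HDM replicates 1 and 2, at -0.36 (edgeR adjusted p = 0.0768) and -0.27 (edgeR adjusted p = 0.0744), and Thy1 lay at 1.24 on the log2 scale when short-term replicate 3 was included. Adipocyte genes gave no call among 8 in edgeR (2 at an unadjusted p under 0.05, none called by DESeq2).

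Transcripts of the mitochondrial genome were lower. Of 13 genes on the mitochondrial list 7 were tested, and all 7 fell, with a median log2 fold change of -0.93. By gene class, the 2 mitochondrial rRNA genes tested were lower, and none of 4 mitochondrial tRNA genes tested passed. The gene mt-Nd1, a subunit of complex I, had 1267, 1125, 1222 and 1149.7 CPM in the short-term libraries, against 2801, 3493, 1821, 1759 and 1479 CPM in the HDM libraries. Every short-term library was below every HDM library (-0.93, SE 0.19, edgeR adjusted p = 0.0158), and HDM replicates 1 and 2 were the highest. The gene mt-Co1, a subunit of complex IV and the most abundant of the set, had 5957, 5834, 5605 and 5870.4 CPM in the short-term libraries, against 13261, 12786, 8456, 7754 and 7561 CPM in the HDM libraries (-0.78, edgeR adjusted p = 0.0153, and -0.47 (edgeR adjusted p = 0.0101) without HDM replicates 1 and 2). Leaving out HDM replicates 1 and 2, 6 of the 7 calls held and the median was -0.52, with mt-Nd1 at -0.52 (edgeR adjusted p = 0.00527), mt-Nd2, the lowest of the set at -1.10 with all HDM libraries, at -0.59 (edgeR adjusted p = 0.00778) and mt-Nd6 at -0.57 (edgeR adjusted p = 0.0597). No call held in all fits with a library left out (mt-Nd1 had an edgeR adjusted p of 0.0626 without short-term replicate 5). As a share of all counts, the mitochondrial genome took 3.55%, 2.84%, 3.57% and 3.35% in the short-term libraries and 5.97%, 7.16%, 5.63%, 4.83% and 4.26% in the HDM libraries. The shares averaged 3.33 ± 0.339% in the short-term and 5.57 ± 1.11% in the HDM libraries (SD, n = 4 and 5; exact two-sided permutation test p = 0.0159, the smallest possible, adjusted over 4 shares 0.0317). The 50 most abundant genes together took 17.1%, 16.6%, 17.2% and 17.1% in the short-term libraries and 19.3%, 21.2%, 19.2%, 18.7% and 18.3% in the HDM libraries, a difference of -2.33 percentage points (n = 4 and 5, exact permutation test p = 0.0159). These 50 genes were picked in each library and include mitochondrial ones such as mt-Co1. Their difference therefore shares counts with that of the mitochondrial genome and is not a separate result. Haemoglobin took 0.0699% in the short-term and 0.0675% in the HDM libraries (n = 4 and 5, exact permutation test p = 0.857). None of 16 nuclear-encoded respiratory chain genes passed in edgeR (3 at an unadjusted p under 0.05, none called by DESeq2), and their median was 0.03. Uqcrb, a subunit of complex III, had a log2 fold change of -0.49 (edgeR adjusted p = 0.137), and Ndufv1, of complex I, averaged 51.5 ± 3.91 CPM in short-term lungs and 45 ± 4.19 CPM in HDM lungs (SD, n = 4 and 5). Rpl4 alone of 18 ribosomal protein genes passed, at -0.36 (edgeR adjusted p = 0.0329), a call kept in 4 of 9 fits and lost without HDM replicates 1 and 2, at -0.25 (edgeR adjusted p = 0.06). Single calls also came from the heat shock list (Bag3, a co-chaperone, -0.32, edgeR adjusted p = 0.0203, and 0.0701 without short-term replicate 2) and the cell cycle list (Tyms, thymidylate synthase, 0.37, edgeR adjusted p = 0.0453, kept in 1 of 9 fits).

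**Figure D4:**
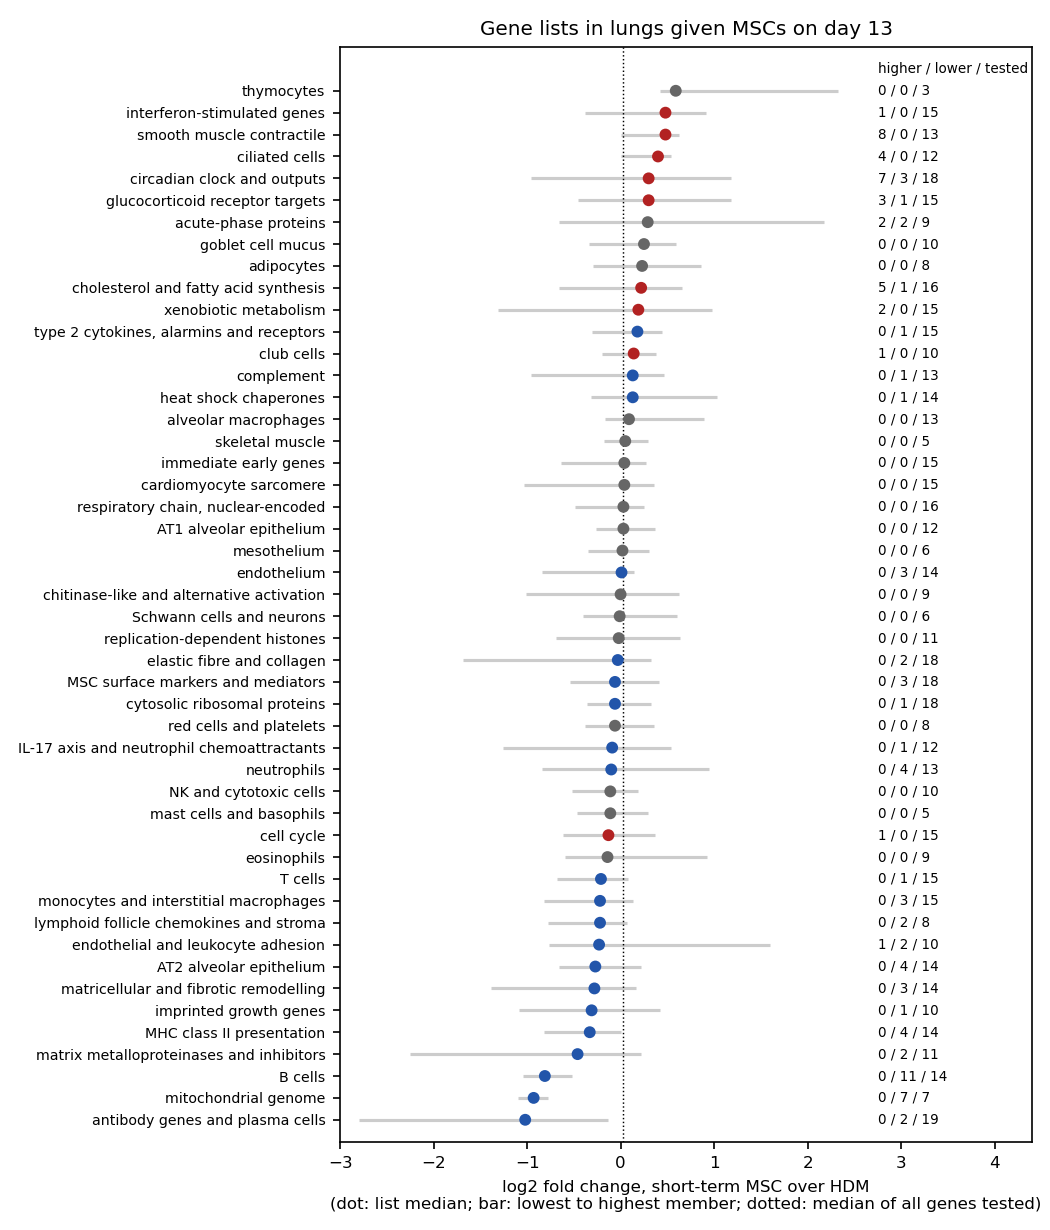
Median log2 fold change, short-term MSC over HDM (dots), and the lowest to highest member (bars) of each of the 48 gene lists, with the counts of members called higher, called lower and tested at the right. Dots are red where more members were higher than lower and blue where more were lower. Antibody, mitochondrial genome and B-cell lists have the lowest medians (-1.02, -0.93 and -0.81), and the dotted line marks the median of all genes tested (0.03).

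The higher and lower calls differed in kind. Of the 634 genes higher in the short-term group 287 (45.3%) were not protein-coding, against 32 of the 660 lower (4.85%) and 22.8% of all genes tested; this division was examined after the values were seen. The largest class was TEC, a provisional GENCODE class of transcribed loci, of which 142 of 1371 were higher (10.4%) and 1 lower, and of 220 sense intronic transcripts 26 were higher and none lower (0 lower also with upper-quartile and RLE scaling). Most of these loci lie inside a protein-coding gene on its own strand. For 1261 such loci whose surrounding gene was also tested, the median log2 fold change was 0.46, against -0.02 for the surrounding genes, and 1128 of them (89.5%) lay above their own surrounding gene. Of these loci 157 were called higher, and in 8 of the 157 the surrounding gene was called higher too. The 1261 loci lie in 799 genes, so the pairs are not independent of one another.

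Some examples, chosen after their values were seen, follow. The locus Gm45496 (ENSMUSG00000110187), on GRCm38 chromosome 8 from 88560033 to 88562949 on the plus strand inside Nkd1, had 12.9, 13.2, 11.1 and 14 CPM in the short-term libraries, against 6.04, 5.24, 5.07, 5.1 and 6.97 CPM in the HDM libraries. Its log2 fold change was 1.17 (SE 0.14, edgeR adjusted p = 0.00243), while Nkd1 itself stood at 0.00. The sense intronic Gm20500, inside Shroom3, had 1.66, 1.8, 1.42 and 1.66 CPM in the short-term libraries, against 0.652, 0.558, 0.454, 0.53 and 0.716 CPM in the HDM libraries (1.48, edgeR adjusted p = 0.00362), and Shroom3 stood at 0.06. In both the short-term libraries were above all HDM libraries. Summed over the library, TEC and sense intronic loci took 0.549%, 0.528%, 0.422% and 0.54% of counts in the short-term libraries, against 0.483%, 0.425%, 0.285%, 0.298% and 0.408% in the HDM libraries, so the totals of the groups overlapped. In short-term replicate 3, left out here, the share was 0.729%. Without short-term replicate 5, 20 TEC loci were called higher, and without HDM replicates 1 and 2 the number was 321. With all 15 libraries in the fit it was 121. The difference from the surrounding genes was not particular to TEC and sense intronic loci. Inside protein-coding genes on their own strand, 275 processed pseudogenes had a median of 0.47, against -0.0 for the surrounding genes. For 60 miRNAs the medians were 0.56 and -0.07, and for 15 antisense transcripts both were -0.03. What lay behind these values was not tested.

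**Figure D5:**
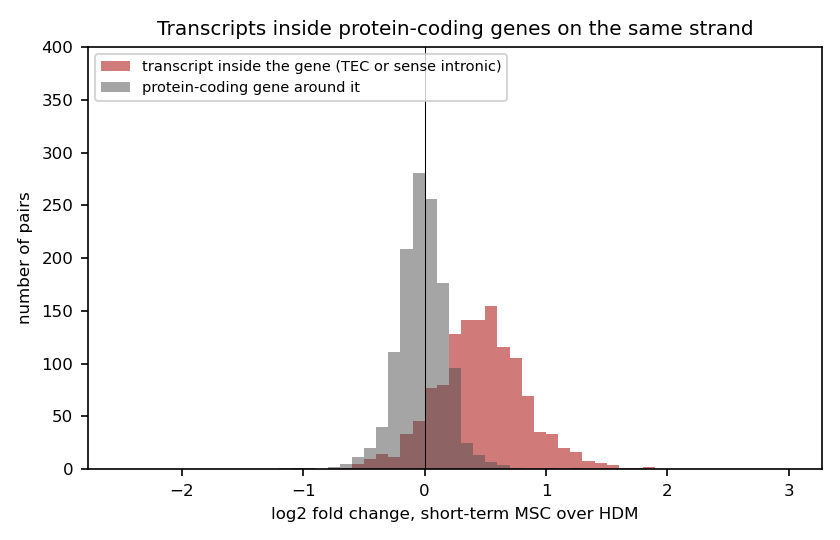
Number of pairs by log2 fold change, short-term MSC over HDM, for 1261 TEC or sense intronic loci (red) and for the protein-coding gene around each of them on the same strand (grey). The loci centre on a median of 0.46 and their surrounding genes on -0.02.

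The short-term group was also set against the long-term group directly, which asks whether the timing of the cells mattered. With edgeR's quasi-likelihood test no gene was called (0.0% of 19657, lowest adjusted p = 0.379, 940 genes at an unadjusted p under 0.05), and DESeq2 called 4 genes. These were Spon2 at -1.04, Cpm at -0.41, Zbtb16 at 1.04 and Afap1l2 at -0.37 on the log2 scale, short-term minus long-term (DESeq2 adjusted p = 0.000137 for Spon2 and 0.0311 for the other 3). The 2 comparisons with HDM share their HDM libraries, so their values are given side by side only. Between the long-term group and HDM 433 genes were called (2.2%). Spon2 lay between 7.6 and 11.2 CPM in the long-term libraries, with a long-term difference from HDM of -0.36, edgeR adjusted p = 0.205. Zbtb16 lay between 49.6 and 74 CPM there (0.13, edgeR adjusted p = 0.791), Per2 between 77.3 and 94.4 CPM (0.57, edgeR adjusted p = 0.04), and Eln between 525 and 1323 CPM (-0.45, edgeR adjusted p = 0.52). Among B-cell genes Cd79b lay between 45.1 and 54.3 CPM (-0.59, edgeR adjusted p = 0.0309) and Iglc2 between 13.9 and 27.2 CPM (-0.84, edgeR adjusted p = 0.0389). The mitochondrial gene mt-Nd1 lay between 1136 and 1338 CPM (-0.85, edgeR adjusted p = 0.0325), and Tagln between 127 and 141 CPM (0.53, edgeR adjusted p = 0.0227). In edgeR's direct test the short-term minus long-term difference was 0.61 (SE 0.14) for Per2, 1.05 (SE 0.24) for Zbtb16, -0.58 (SE 0.14) for Nr1d1 and -0.32 (SE 0.13) for Cd79b on the log2 scale, none of which passed.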

How the data were processed

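Lung RNA was sequenced after preparation with a stranded total RNA kit, per the labels' protocols. The deposited values are raw counts of reads per gene, made by the authors. Reads were aligned with STAR 2.5.3a to GRCm38, per the submitters' processing notes. The sources used here do not say how reads were counted, on which strand or against which annotation. Gene classes and overlaps were taken from GENCODE M21, which matched 55240 of 55421 genes.

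Genes were filtered with filterByExpr and scaled by TMM. A robust quasi-likelihood model was fitted in edgeR 4.0.16 (R 4.3.3) to 14 libraries, all but short-term replicate 3, so that the long-term group shared in estimating the spread. P-values were adjusted by Benjamini-Hochberg over 19657 genes at a threshold of 0.05. CPM values of genes were computed on library sizes adjusted by TMM; shares of counts, and Rag1 and satellite values of short-term replicate 3, are relative to total counts. The pipeline was tested on simulated counts. Shares of counts were compared with an exact permutation test (scipy 1.17.1). Alternatives used DESeq2 1.42.0, limma 3.58.1 and sva 3.50.0. Replicate numbers follow accession order and pair no samples. Intervals and p-values cover only these libraries.

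The members, lists and tests were chosen with earlier results of these data known. Named genes were the 12 called protein-coding genes with the highest and the 12 with the lowest log2 fold change among those averaging 1 CPM or more, the 10 with the smallest adjusted p, and for each of 48 lists up to 4 called members with the smallest adjusted p or, with none called, the 2 with the smallest p. Other genes named beside them were chosen after their values were seen. Some genes that the rule names are not reported here. Of 620 list genes 617 were found in the table.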

Additional observations from a re-analysis of the deposited data

Results flagged for a closer look

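Some libraries stood far from the rest of their own group. Among 196 groups of values examined, 14 such libraries were found, and chance gives about 1 in 20. In the short-term group replicate 5 had 166 CPM of Per2 (117 to 125 in the others), 94.2 CPM of Dync2h1 (76.1 to 78.9) and 9.37 CPM of Trac (13.7 to 14.4). Short-term replicate 4 had 65.9 CPM of Lbp (60.9 to 61.5) and 192 CPM of Cxcl12 (140.2 to 146), and in replicate 2 the 50 most abundant genes took 16.6% of counts (17.1 to 17.2%).

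In the HDM group replicate 3 had 92.1 CPM of Zbtb16 (34.8 to 50.3), 723 CPM of Fmo2 (369 to 432) and 22.8 CPM of Iglc2 (32.3 to 35.9). HDM replicate 2 had 3.98 CPM of Kcnj10 (2.13 to 2.49), 581 CPM of Muc1 (405 to 451), 90.4 CPM of Aplnr (59.3 to 67.9) and 112 CPM of Selplg (127 to 133). HDM replicate 4 had 47.2 CPM of Dync2h1 (54.0 to 56.3).

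The library left out, short-term replicate 3, held 1797 CPM of Rag1, the recombinase of developing lymphocytes, against 0.294 to 0.877 CPM in HDM, each over the library's total counts. Satellite transcripts made up 15.8% of the library, and 0.042% or less of every other one.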

How the results depend on the processing

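The number of calls moved with the model. Totals, higher and lower calls were 2461, 1040 and 1421 with DESeq2, 2233, 1237 and 996 with limma voom, 2614, 1436 and 1178 with 1 surrogate variable, 2279, 957 and 1322 without both HDM replicates 1 and 2, 152, 81 and 71 with only the 9 libraries, and 0, 0 and 0 when a fold of 1.5 was tested. Higher calls were 412 with no filter on low counts and 371 with all 15 libraries, and lower calls were 405 with upper-quartile scaling and 1189 after the length correction, which was added after the data were seen. Leaving out 1 library gave 157 to 2135 calls, 67 to 885 higher and 90 to 1250 lower. The cause was not tested.

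Differences in shares of counts ranged over -2.57 to -1.85 percentage points for the mitochondrial genome, -0.713 to -0.41 for immunoglobulin and -2.58 to -1.86 for the 50 most abundant genes when 1 library was left out, and were -1.58, -0.364 and -1.73 without HDM replicates 1 and 2, where fewer samples raise the smallest possible p. With all 15 libraries the third became 0.282, Trac 0.24 and Thy1 1.24. DESeq2 called 4 genes between the short-term and long-term groups. Of 2918 values of named genes under 23 alternatives, 2436 kept their direction and side of the threshold, 440 lost the call, 40 gained it and 2 reversed. No paired analysis was possible because replicate numbers follow accession order and mark no shared animal or batch.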

Other observations

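Among the 146 calls kept in every fit with 1 library left out were several genes not named above, chosen after their values were seen. Cd180, a toll-like receptor homologue of B cells, averaged 16.7 ± 2.43 CPM in short-term lungs and 32.1 ± 7.38 CPM in HDM lungs (-0.95, edgeR adjusted p = 0.00519), and Tlr7, the receptor for single-stranded RNA, averaged 26.4 ± 1.63 CPM in short-term lungs and 39.4 ± 4.98 CPM in HDM lungs (-0.57, edgeR adjusted p = 0.00579). Itgb6, the epithelial integrin chain that activates TGF-beta, averaged 79.2 ± 12.7 CPM in short-term lungs and 136 ± 20 CPM in HDM lungs (-0.78, edgeR adjusted p = 0.00777), and Gja1, the gap junction protein connexin 43, averaged 104 ± 8.11 CPM in short-term lungs and 156 ± 15.3 CPM in HDM lungs (-0.58, edgeR adjusted p = 0.00437; all SD, n = 4 and 5). Ryr3, a calcium release channel, was higher at 13.6 ± 2.27 CPM in short-term lungs and 7.92 ± 1.55 CPM in HDM lungs (0.78, edgeR adjusted p = 0.00933), as was Dnah12, an axonemal dynein, at 78.1 ± 8.27 CPM in short-term lungs and 50.4 ± 6.52 CPM in HDM lungs (0.63, edgeR adjusted p = 0.00921; SD, n = 4 and 5).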
